A study of Arabidopsis thaliana with 6 samples.

Results

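The 9 genes described here cover the route of nitrate in the plant: 4 nitrate transporter genes (NRT1.1, NRT1.5, NRT1.8 and NRT2.1), 3 genes of nitrate and nitrite reduction (NIA1, NIA2 and NIR1) and 2 genes that carry the resulting ammonium into glutamine and asparagine (GLN2 and ASN2). They were taken by gene ID, with earlier results of these data known. All 9 were present among the 32548 genes of the expression table. RNA-seq was done on whole Arabidopsis thaliana seedlings aged 12 days, grown on MS medium, with no treatment, at 22 °C in days of 16 h light and 8 h dark. The genotypes were wild type (Col-0) and the mutants hac1hac5 and med8med25, with 2 libraries each. HAC1 and HAC5 are histone acetyltransferases of the CBP/p300 family, and MED8 and MED25 are subunits of Mediator, which passes signals from DNA-bound factors to RNA polymerase II. The study's title asks how the acetyltransferases and Mediator act together in transcription. The labels name no alleles, and each mutant combines mutations in a pair of genes, so the part of either gene in a difference cannot be told apart. Whether the paired libraries stem from separate batches of plants is not stated, and the p-values therefore reflect only how far these samples scatter, which may be technical.

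Plants take up nitrate through transporters of the NRT1/NPF and NRT2 families, move it between root and shoot in the xylem, and reduce it in leaves and roots. Nitrate reductase in the cytosol makes nitrite, nitrite reductase in the plastid makes ammonium, and glutamine synthetase with glutamate synthase fixes ammonium into amino acids, from which asparagine is made for transport and storage. Many genes of this route are switched on by nitrate itself, by light and by sugar.

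Several of these genes have close copies in the genome, and the length of sequence they share decides whether a read of 50 bases can be placed. The longest identical coding run of each pair is shown in capitals with the bases around it, read 5′ to 3′ on the coding strand from RefSeq, build TAIR10.1. The NIA genes are each other's closest comparison here, ASN2 is set beside ASN3, and NRT2.1 beside its neighbour NRT2.2. The NIA2 stretch lies at chr1:14159190-14159239 on the plus strand and the NIA1 stretch at chr1:29238727-29238776 on the minus strand. Both ASN stretches are coding bases 49 to 98 and span an intron. The NRT2.1 stretch lies at chr1:2524510-2524699 on the plus strand, and its capitals stand unchanged in NRT2.2 on the minus strand at chr1:2528524-2528713.
NIA2: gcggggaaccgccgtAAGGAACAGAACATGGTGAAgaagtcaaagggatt
NIA1: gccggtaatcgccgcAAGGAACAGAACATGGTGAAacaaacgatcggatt
ASN2: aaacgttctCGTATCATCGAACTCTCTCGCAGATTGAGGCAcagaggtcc
ASN3: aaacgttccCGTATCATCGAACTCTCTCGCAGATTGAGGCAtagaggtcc
NRT2.1: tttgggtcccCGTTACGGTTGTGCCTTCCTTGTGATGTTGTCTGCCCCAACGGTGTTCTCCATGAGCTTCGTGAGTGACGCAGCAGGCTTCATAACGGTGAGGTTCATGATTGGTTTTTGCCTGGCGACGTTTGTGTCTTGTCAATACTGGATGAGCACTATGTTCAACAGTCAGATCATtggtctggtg

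The NIA coding sequences were 73.8% identical with a longest shared run of 20 bases, and ASN2 and ASN3 were 86.7% identical with a run of 32 bases, both shorter than a read. NRT2.1 and NRT2.2 were 89.4% identical and shared 170 bases without a difference. Of all stretches of 50 bases inside single exons of NRT2.1, 91.1% occurred nowhere else in the genome. Reads from the remainder could have been left out. None was counted for NRT2.2, which had no read in any library. For each of the other 8 genes the share was 100%. Stretches that cross an exon junction, such as the ASN2 stretch above, were not checked.

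The libraries held 36.2 and 33.1 M gene-assigned reads for Col-0. Those of hac1hac5 held 33.9 and 36.8 M reads, and those of med8med25, the shallowest on average, 24.9 and 32.3 M. The med8med25 libraries differed more from each other than the others did: across 18049 genes with a mean of at least 50, the SD of the log2 difference between libraries was 0.29, against 0.16 in Col-0 and 0.21 in hac1hac5. MED8 (846.6 and 855.3 normalized counts in Col-0) stood at 307.1 and 322.9 in med8med25, and MED25 (1236 and 1227) at 253.8 and 302.4, and both fell (limma, adjusted p = 2.0e-05 and 1.4e-05). HAC1 stood at 3385 and 3529 in Col-0 and at 2342 and 2875 in hac1hac5, a fall of 1.33-fold (adjusted p = 0.011) that missed 0.05 when either Col-0 library or the first hac1hac5 library was left out, with log2 changes of -0.44, -0.38 and -0.27 (-0.265), and with library totals as the scale, at -0.23. HAC5 read 1233 and 1190 against 800.7 and 1087 (log2 change -0.38, adjusted p = 0.05 by limma, just short of the threshold). The HAC5 change was -0.16 without the first hac1hac5 library, -0.60 and called without the second, and -0.20 with library totals. At -0.38 it was called with the replicate block and without either med8med25 library. Limma voom and a crossed replicate block, both chosen after seeing the data, also called HAC5, at -0.38. It was not called with the other pseudocount, no filter, only the compared genotypes, or without either Col-0 library. Whole-transcript totals of this kind can remain after a disruption of the gene, so the hac1hac5 labels were checked only in part. All 14 root markers and all 12 leaf photosynthesis markers were detected in all libraries.

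Values below are the deposited normalized counts, reads scaled by the authors to a common library size, and changes are differences of log2(value + 1). A gene was called when limma's adjusted p (Benjamini-Hochberg over 23898 genes) was under 0.05. In hac1hac5 against Col-0, 7 of the 9 genes were called: NRT1.1, NRT1.5, NIA1, NIA2, GLN2 and ASN2 were lower and NRT1.8 was higher. Of all genes tested, 38.4% were called in that comparison, 17.4% higher and 21.0% lower. In med8med25 against Col-0, only NRT1.5 was called, lower, where 26.6% of all genes were called, 12.3% higher and 14.3% lower. Compared directly, 7 of the 9 genes differed between the mutants, 6 higher in med8med25 and 1 lower, where 41.4% of all genes differed, 20.9% higher and 20.5% lower. The median log2 change of the 9 genes in hac1hac5 was -1.10, beside -0.02 over all genes tested. In med8med25 it was -0.04 beside 0.00 (0.001). The 9 genes were chosen with earlier results of these data known. These counts and medians therefore describe the set and do not test the pathway. Since whole seedlings were used, fewer cells of a type and less RNA per cell cannot be told apart in any of these values.

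**Figure D1:**
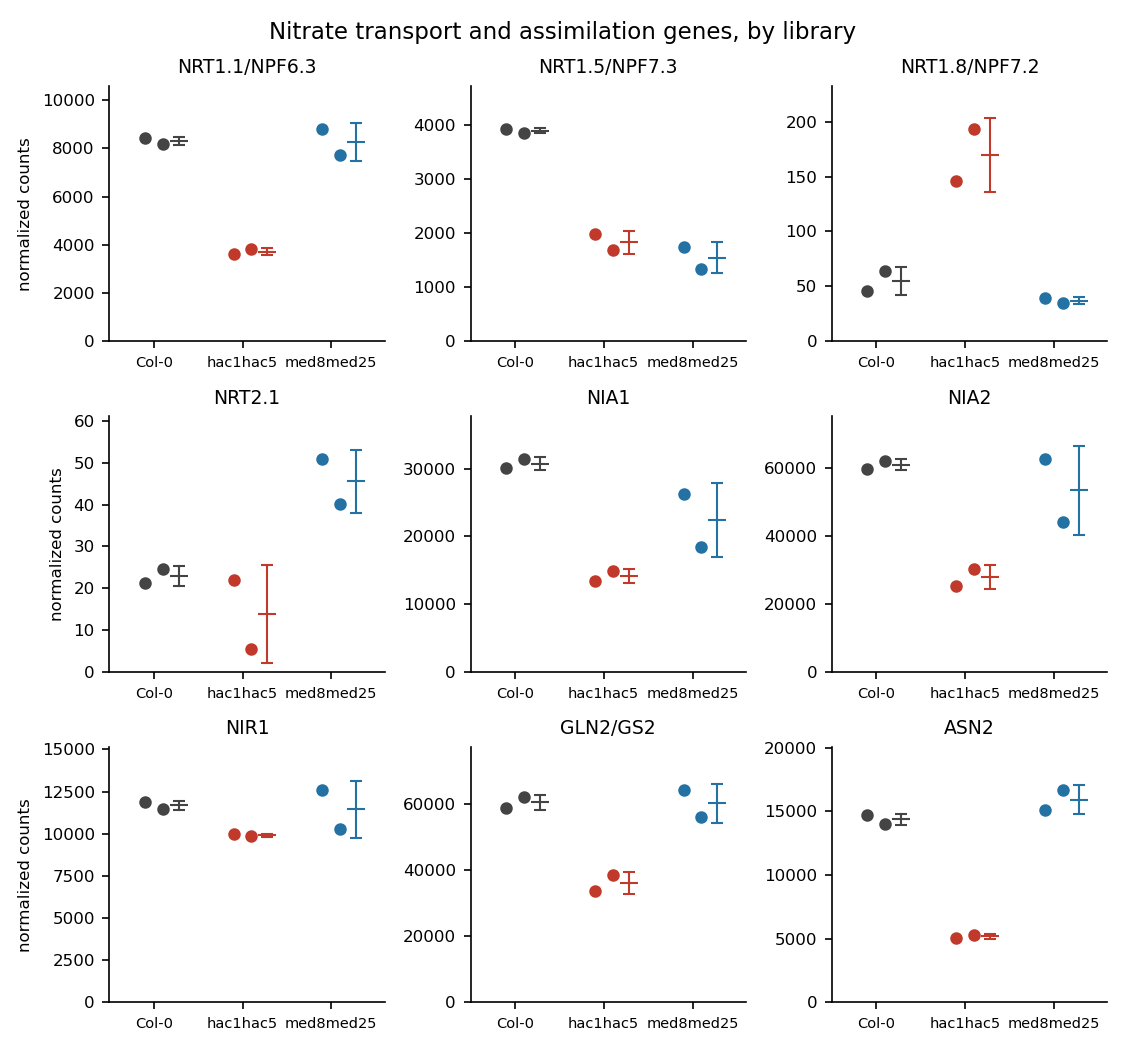
Normalized counts of the 9 nitrate genes in each library of Col-0, hac1hac5 and med8med25, with dots for libraries and a dash and bar for the mean and SD of the 2 libraries. NRT1.1, NIA1, NIA2, NIR1, GLN2 and ASN2 sit lower in both hac1hac5 libraries than in all libraries of the other genotypes. The NIR1 difference is small and is not called. NRT1.5 is low in both mutants, and NRT1.8 is high in hac1hac5.

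NRT1.1, also named NPF6.3, is a plasma membrane nitrate transporter that also serves as a nitrate sensor (AT1G12110, chr1:4105223-4109601, plus strand). It read 8423 and 8202 normalized counts in Col-0, with 3617 and 3815 for hac1hac5 and 8824 and 7711 for med8med25. Both hac1hac5 libraries lay below the other 4, and the med8med25 values lay on either side of the Col-0 values. The fall in hac1hac5 was 2.24-fold (log2 change -1.16, SE 0.08, adjusted p = 2.4e-05 by limma). In med8med25 the log2 change was -0.01 with a 95% interval of -0.20 to 0.18 (adjusted p = 0.94), and the mutants differed by 1.15 on the log2 scale (adjusted p = 4e-05).

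NRT1.5, or NPF7.3, loads nitrate into the root xylem for transport to the shoot (AT1G32450, chr1:11715147-11719988, minus strand). Its levels were 3937 and 3863 in Col-0, with 1981 and 1682 for hac1hac5 and 1747 and 1344 for med8med25. All 4 mutant libraries lay below both Col-0 libraries, and the mutants overlapped each other. The fall was 2.14-fold in hac1hac5 (log2 change -1.10, SE 0.13, adjusted p = 0.00029 by limma) and 2.54-fold in med8med25 (log2 change -1.35, adjusted p = 0.00023). The direct difference between the mutants was -0.25 (95% interval -0.54 to 0.04, adjusted p = 0.15), and it was called, at -0.44, without the first med8med25 library and stood at -0.06 without the second.

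NRT1.8, or NPF7.2, acts at the other end of that path and takes nitrate back out of the xylem (AT4G21680, chr4:11517353-11519805, minus strand). It was a low gene, at 46.29 and 64.16 normalized counts in Col-0, with 145.7 and 193.6 for hac1hac5 and 39.37 and 34.66 for med8med25. The groups did not overlap, with hac1hac5 highest and med8med25 lowest. Behind the hac1hac5 values were 162 and 224 reads (exact 95% Poisson intervals 138 to 189 and 196 to 255, for counting error only), against 48 and 60 in Col-0. The rise in hac1hac5 was 3.04-fold (log2 change 1.61, SE 0.24, adjusted p = 0.0011 by limma). In med8med25 the log2 change was -0.55 (95% interval -1.09 to -0.01, adjusted p = 0.12), and the mutants differed 4.45-fold (adjusted p = 0.00027). Per kilobase of exon, the level of NRT1.5 was 83.9 and 59.4 times that of NRT1.8 in the Col-0 libraries, 13.4 and 8.57 times in hac1hac5, and 43.8 and 38.2 times in med8med25.

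NRT2.1 encodes the main high-affinity nitrate uptake transporter of the root (AT1G08090, chr1:2524023-2526322, plus strand), and few reads of it were present. It read 21.24 and 24.64 normalized counts in Col-0, with 22.07 and 5.559 for hac1hac5 and 50.91 and 40.23 for med8med25. The second hac1hac5 value rests on 7 reads (exact 95% Poisson interval 2.81 to 14.4) and the first on 24, so the hac1hac5 libraries disagreed with each other and the first lay among the Col-0 values. Neither mutant was called against Col-0 (log2 change -0.96 in hac1hac5, adjusted p = 0.19, and 0.95 in med8med25, adjusted p = 0.22, by limma). Without the first hac1hac5 library the change in that mutant was -1.86 and was called, and without the second, the library with 7 reads, it was -0.05 (adjusted p = 0.925 by limma). Without the second hac1hac5 library the change in med8med25 was called, at the same 0.95. The direct difference between the mutants was 1.91 (adjusted p = 0.02). It missed the threshold without the second hac1hac5 library, at 1.00, without the first med8med25 library, at 1.75 (1.745), and when only the libraries of the mutants entered the fit, at 1.91. NRT2.2 had no read in any of the 6 libraries. NRT3.1, the partner protein that NRT2.1 needs for transport, stood at 237.6 and 282 in Col-0, with 185.2 and 167.6 for hac1hac5 and 253.6 and 206.2 for med8med25. Its fall in hac1hac5 (log2 change -0.55, adjusted p = 0.021) was lost without the second Col-0 library, at -0.43, or either hac1hac5 library, at -0.62 and -0.48, and with library totals, at -0.37.

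NIA1 and NIA2 encode the nitrate reductases, and NIA2 accounts for most of the activity in Arabidopsis shoots. NIA1 (AT1G77760, chr1:29235721-29239484, minus strand) read 30060 and 31410 normalized counts in Col-0, with 13450 and 14840 for hac1hac5 and 26270 and 18500 for med8med25. NIA2 (AT1G37130, chr1:14158452-14161938, plus strand) read 59730 and 62110 in Col-0, with 25360 and 30300 for hac1hac5 and 62590 and 44120 for med8med25. For both genes the hac1hac5 libraries were the lowest. For NIA1 both med8med25 libraries lay between them and Col-0, and for NIA2 only the second did. The falls in hac1hac5 were close in size, 2.18-fold for NIA1 (log2 change -1.12, SE 0.16, adjusted p = 0.00075 by limma) and 2.2-fold for NIA2 (log2 change -1.14, SE 0.18, adjusted p = 0.0014).

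In med8med25 the nitrate reductase genes depended on the library. The log2 change of NIA1 was -0.48 (95% interval -0.84 to -0.12, adjusted p = 0.053 by limma), and without the first med8med25 library it was -0.73 and was called, whereas without the second it was -0.23. NIA1 was also called by limma voom on the recovered reads, at -0.47 (adjusted p = 0.0439), and with a crossed replicate block, at -0.48 (adjusted p = 0.0182), both chosen after seeing the data. That of NIA2 was -0.21 (95% interval -0.62 to 0.19, adjusted p = 0.41). Without the first med8med25 library it was -0.47 (-0.465) and was called, and without the second it was 0.04. The recovered reads of the med8med25 libraries were nearly equal, 19877 and 19716 for NIA1 and 47357 and 47022 for NIA2. The libraries held 24.9 and 32.3 M reads, so both genes made up a smaller share of the second. The cause was not tested. Against hac1hac5, med8med25 was higher by 0.64 for NIA1 (adjusted p = 0.011) and by 0.92 for NIA2 (adjusted p = 0.0038). The NIA1 difference was lost without the first hac1hac5 library, at 0.57. Without the first med8med25 library it was smaller, at 0.39, but still called.

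Per kilobase of exon, NIA2 stood at 1.96 and 1.95 times NIA1 in the Col-0 libraries and at 1.86 and 2.01 times in hac1hac5. In med8med25 it was 2.35 times in both libraries, above the other 4. No test was made of these ratios.

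NIR1 encodes nitrite reductase, which removes the toxic nitrite that nitrate reductase makes (AT2G15620, chr2:6810395-6812941, plus strand). Its levels were 11880 and 11490 in Col-0, with 9978 and 9852 for hac1hac5 and 12620 and 10260 for med8med25. The hac1hac5 libraries were the lowest of the 6, but the difference was small beside that of NIA1 and NIA2. The log2 change was -0.24 (SE 0.10, 95% interval -0.48 to 0.00 (0.002), adjusted p = 0.11 by limma), and it was called at the same size without either med8med25 library or with only the compared genotypes in the fit. With library totals it was -0.06 (adjusted p = 0.598 by limma). In med8med25 it was -0.04 (95% interval -0.28 to 0.20, adjusted p = 0.82), and the mutants differed by 0.20 (adjusted p = 0.16). That difference was called without the second med8med25 library, at 0.35, and was not called without the first, at 0.05 (0.049). Per kilobase, NIR1 stood at 0.291 and 0.27 times NIA2 in Col-0, 0.575 and 0.475 times in hac1hac5, and 0.295 and 0.34 times in med8med25, highest in both hac1hac5 libraries.

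GLN2, the chloroplast glutamine synthetase GS2, fixes the ammonium from nitrite reduction and photorespiration (AT5G35630, chr5:13830429-13833542, plus strand). It read 58780 and 61930 normalized counts in Col-0, with 33700 and 38440 for hac1hac5 and 64210 and 55850 for med8med25. Both hac1hac5 libraries were below the other 4, and med8med25 overlapped Col-0. The fall in hac1hac5 was 1.68-fold (log2 change -0.75, SE 0.13, adjusted p = 0.0027 by limma), and without the second Col-0 library it was -0.71 and just missed the threshold. In med8med25 the log2 change was -0.01 (95% interval -0.31 to 0.29, adjusted p = 0.97), and the mutants differed by 0.73 (0.735, adjusted p = 0.0029).

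ASN2 is an asparagine synthetase that is induced by light, and it showed the greatest fall of the 9 genes in hac1hac5 (AT5G65010, chr5:25969035-25972575, plus strand). It read 14700 and 14050 in Col-0, with 5067 and 5334 for hac1hac5 and 15110 and 16720 for med8med25. The 3 genotypes did not overlap, with hac1hac5 well below the others and med8med25 slightly above Col-0. The fall in hac1hac5 was 2.76-fold (log2 change -1.47, SE 0.08, adjusted p = 7.4e-06 by limma). In med8med25 the log2 change was 0.15 (0.145, 95% interval -0.05 to 0.34, adjusted p = 0.24), and the mutants differed 3.06-fold (adjusted p = 8.3e-06). With library totals ASN2 was called higher in med8med25, at 0.30 (adjusted p = 0.0291 by limma).

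**Figure D2:**
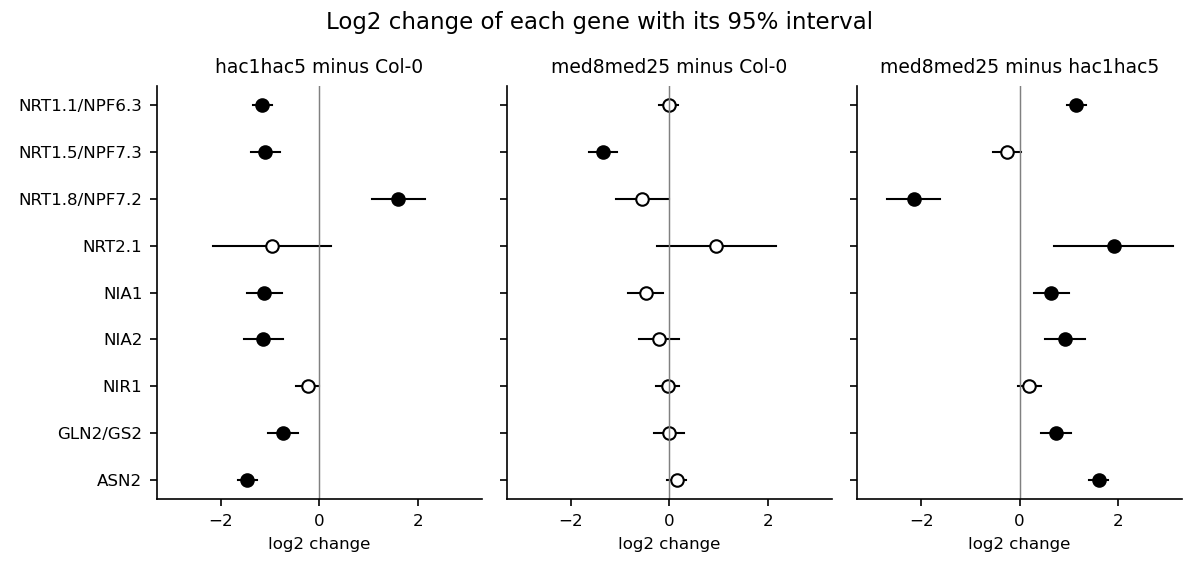
Log2 change of each of the 9 genes in hac1hac5 and med8med25 against Col-0, and in med8med25 against hac1hac5. Lines are the 95% interval of the limma estimate. Filled points have an adjusted p under 0.05 and open points do not. Against Col-0, 6 genes are called lower and NRT1.8 higher in hac1hac5, and in med8med25 NRT1.5 is the only one called, at -1.35.

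The asparagine and glutamine synthetase families hold other members whose levels moved in other ways. ASN1, which is induced in the dark and by sugar starvation, read 9841 and 9052 in Col-0, with 15350 and 17450 for hac1hac5 and 1705 and 1278 for med8med25. It rose 1.73-fold in hac1hac5 (log2 change 0.79, adjusted p = 0.002 by limma) and fell 6.39-fold in med8med25 (log2 change -2.68, adjusted p = 1.2e-05), so ASN1 and ASN2 had opposite signs in hac1hac5. The mutants differed 11.1-fold for ASN1 (adjusted p = 2.8e-06). ASN3 read 635.1 and 542.3 in Col-0, with 587 and 531.7 for hac1hac5 and 523.6 and 528.3 for med8med25, with neither mutant called (adjusted p = 0.63 and 0.30), and its sign turned under other settings. Per kilobase, ASN1 stood at 0.543 and 0.522 times ASN2 in Col-0, 2.46 and 2.65 times in hac1hac5, and 0.0915 and 0.062 times in med8med25. ASN1 was thus above ASN2 in hac1hac5 and below it in the other genotypes.

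GLN1;2, a cytosolic glutamine synthetase, averaged 14720 ± 102 (SD, n = 2) in Col-0, against 13970 ± 584 for hac1hac5 and 23160 ± 1340 for med8med25. It rose 1.57-fold in med8med25 (log2 change 0.65, adjusted p = 0.0013 by limma), and in hac1hac5 its log2 change was -0.08 (adjusted p = 0.53), 0.10 with library totals as the scale. GLN1;1, another cytosolic form, fell 1.43-fold in hac1hac5 (log2 change -0.52, adjusted p = 0.00052) and had a log2 change of 0.19 in med8med25 (adjusted p = 0.068). With library totals these were -0.34, still called, and 0.35, now called (adjusted p = 0.00894 by limma). GLN1;3 was called in neither mutant (log2 change 0.07 and 0.13, adjusted p = 0.62 and 0.34), and its sign in hac1hac5 turned to -0.06 without the first hac1hac5 library. Per kilobase, GLN2 stood at 3.22 and 3.36 times GLN1;2 in Col-0 and lower in both mutants, at 1.99 and 2.14 times in hac1hac5 and 2.14 and 2.02 times in med8med25. In hac1hac5 the member of the pair that was called was GLN2, and in med8med25 it was GLN1;2.

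**Figure D3:**
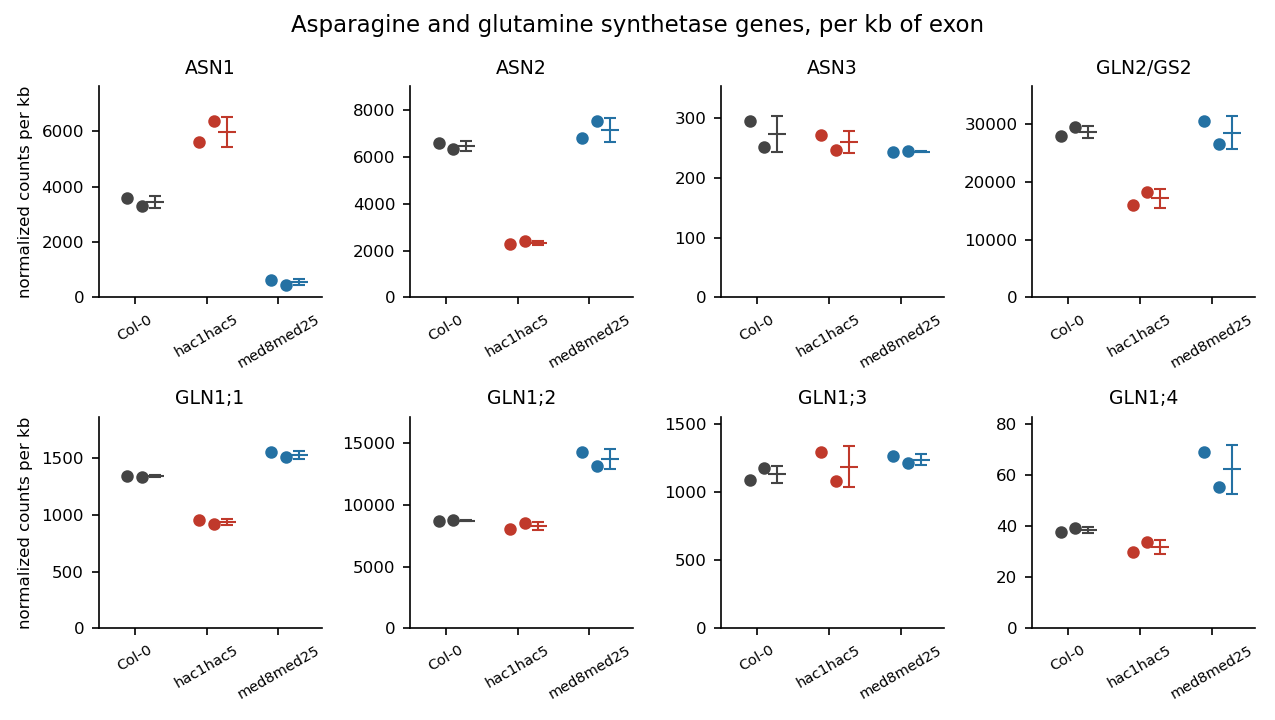
Levels of asparagine and glutamine synthetase genes in each library, with dots for libraries and a dash and bar for the mean and SD. ASN1 is highest in hac1hac5 (15350 and 17450 normalized counts, before division by exon length) and lowest in med8med25 (1705 and 1278), whereas ASN2 is lowest in hac1hac5 (5067 and 5334).

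Levels per kilobase of exon rank the 9 genes in Col-0. GLN2 was highest at 28730 ± 1060 normalized counts per kilobase (SD, n = 2), followed by NIA2 at 19010 ± 523 and NIA1 at 9742 ± 303. ASN2 came next at 6458 ± 206, then NIR1 at 5328 ± 126, NRT1.1 at 3775 ± 70.7 and NRT1.5 at 1760 ± 24. NRT1.8 at 25.27 ± 5.78 and NRT2.1 at 10.87 ± 1.14 were far below. No neighbours in this order overlapped between their Col-0 libraries. In hac1hac5 the means of NIA1 (4484 ± 312) and NIR1 (4521 ± 41) overlapped, ASN2 (2336 ± 84.9) stood below both, and NRT1.8 (77.61 ± 15.5) remained below NRT1.5 (826.5 ± 95.5). In med8med25 NIA1 (7095 ± 1740) overlapped ASN2 (7150 ± 511), and NRT2.1 (21.59 ± 3.58) stood above NRT1.8 (16.94 ± 1.52), the reverse of their order in Col-0.

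The other genes of the route were taken from lists of transporters, assimilation enzymes, cofactor and reductant genes, and regulators. They held 86 genes with a value, and 82 of them were tested. In hac1hac5, 14 were higher and 27 lower, and in med8med25, 14 were higher and 13 lower. That is 50% and 32.9% of those tested, beside 38.4% and 26.6% of all genes. The calls depended on the scale. With library totals in place of the authors' scaling the median log2 change of all genes moved from -0.02 to 0.16 in hac1hac5 and from 0.00 (0.001) to 0.15 in med8med25. The counts of the other pathway genes became 21 higher and 16 lower in hac1hac5, and 26 higher and 8 lower in med8med25. The share of calls that were higher thus went from 34.1% to 56.8% in hac1hac5 and from 51.9% to 76.5% in med8med25, and over all genes from 45.3% to 67.7% and from 46.1% to 72.6%. For the 9 genes themselves hac1hac5 kept 1 higher and 6 lower under both scales, with a median of -0.91 beside 0.16 over all genes under library totals.

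Among 16 other nitrate transport genes tested, 2 were higher and 7 lower in hac1hac5, and 3 were higher and 6 lower in med8med25. With library totals these were 3 and 3, and 5 and 4. Under the authors' scaling 56.2% were called in each mutant, beside 38.4% of all genes in hac1hac5 and 26.6% in med8med25. NRT1.11, which moves nitrate from xylem to phloem in the leaf, read 4755 ± 319 (SD, n = 2) in Col-0, against 1203 ± 55.5 for hac1hac5 and 1202 ± 54.5 for med8med25. It fell 3.95-fold in each mutant (adjusted p = 1.4e-06 and 5.9e-06 by limma), and the difference between the mutants was 0.00 (-0.001, 95% interval -0.18 to 0.18). CLC-B, a vacuolar anion channel family gene, rose in both, by 0.55 (adjusted p = 0.00068) and 0.69 (adjusted p = 0.00044), but 79.2% of its exon bases were free of a gene on the opposite strand. In med8med25 NAXT1, a nitrate exporter of the root, rose by 0.83 (adjusted p = 0.0011) and SLAH1 fell by 1.91 on the log2 scale (adjusted p = 7e-04). Other calls were lost under another scale or without single libraries. In hac1hac5, NAXT1 (0.46) was lost without either Col-0 library or the second hac1hac5 library, at 0.48, 0.43 and 0.33. SLAH1 (-0.71) was lost without the same libraries, at -0.73, -0.70 and -0.45, and with library totals, at -0.53. NRT1.7 (-0.58) was lost without either Col-0 library or the first hac1hac5 library, at -0.60, -0.56 and -0.52. Its fall in med8med25 was larger (log2 change -1.17, adjusted p = 7e-04 by limma), and med8med25 differed from hac1hac5 by -0.59 (adjusted p = 0.0097). How these held under the alternatives is not given here. In med8med25, NRT2.3 (-2.21) was lost without either Col-0 library or the first med8med25 library, at -2.17, -2.26 and -1.76, and its change was -3.92 with a pseudocount of 0.1. Very few reads lay behind NRT2.3, 6 and 5 in Col-0 and 0 and 1 in med8med25. NRT1.9 (0.58, with 69.3% of exon bases free) was lost without the second Col-0 library, at 0.45 (0.445).

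Among 20 ammonium and amide genes tested, 2 were higher and 6 lower in hac1hac5, and 4 were higher and 3 lower in med8med25. With library totals these were 2 and 6, and 7 and 3. Calls under the authors' scaling made up 40% of the list in hac1hac5, near the 38.4% of all genes. In med8med25 they made up 35%, beside 26.6% of all genes. GLU1, the ferredoxin-dependent glutamate synthase that works with GLN2, fell by 0.90 on the log2 scale in hac1hac5 (adjusted p = 0.0018 by limma) and read 58800 ± 2340 in Col-0, against 31740 ± 5890 for hac1hac5 and 50510 ± 3470 for med8med25 (SD, n = 2). The ammonium transporter genes AMT1;2 and AMT1;3 fell in hac1hac5, by 1.13 and 0.82 (adjusted p = 0.00018 and 0.00093). GDH2, a glutamate dehydrogenase subunit, rose by 0.63 in hac1hac5 (adjusted p = 0.00061), and GDH1, the other main subunit, fell by 0.95 in med8med25 (adjusted p = 0.00011). In med8med25 GDH2 (-0.50) was lost without the first Col-0 library, at -0.42. AMT1;2 (0.60) was lost without either Col-0 library, at 0.58 and 0.62. GLN1;4 (0.67) was lost without either Col-0 library, at 0.64 and 0.70, without the second hac1hac5 library, at 0.67, and without the first med8med25 library, at 0.52. It was also lost with the replicate block (adjusted p = 0.0646 by limma) and with only the compared genotypes in the fit (adjusted p = 0.0618), at the same 0.67.

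Among 12 genes for the reductases' cofactors and reductant, 1 was higher and 4 lower in hac1hac5, which became 5 higher and 0 lower with library totals. In med8med25, 2 were higher and 1 lower, and 5 and 0 with library totals. Under the authors' scaling 41.7% of the list was called in hac1hac5 and 25% in med8med25. Both lay near the shares of all genes called, 38.4% and 26.6%. RFNR2 and G6PD3, which supply electrons for nitrite reduction in root plastids, rose in med8med25 by 0.80 and 0.70 (adjusted p = 7e-04 and 0.0028 by limma). In hac1hac5 their falls of 0.37 (-0.365) and 0.46 were lost with library totals, at -0.18 and -0.28, and without either Col-0 library or the second hac1hac5 library. Without those libraries the changes were -0.35, -0.38 (-0.375) and -0.23 for RFNR2, and -0.47, -0.46 and -0.30 for G6PD3. CNX2, an enzyme of molybdenum cofactor synthesis, rose by 0.44 and RFNR1 fell by 0.39 in hac1hac5, both lost without the second Col-0 library, at 0.40 and -0.31, and RFNR1 was also lost with library totals, at -0.21. UPM1, of siroheme synthesis, fell by 0.41 in med8med25, lost without either Col-0 library, at -0.38 and -0.44, and with library totals, at -0.25.

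Among 34 regulators of the nitrate response, 9 were higher and 10 lower in hac1hac5, and 5 were higher and 3 lower in med8med25. With library totals these were 11 and 7, and 9 and 1. Regulators called under the authors' scaling were 55.9% of the list in hac1hac5, beside 38.4% of all genes. In med8med25 they were 23.5%, near the 26.6% of all genes. CPK32, a calcium-dependent protein kinase that phosphorylates NLP7, rose 6.46-fold in hac1hac5 (1280 ± 80.7 to 8355 ± 1700 normalized counts, SD, n = 2, adjusted p = 9e-06 by limma) and 2.05-fold in med8med25 (2652 ± 529, adjusted p = 0.0025). CBL1, a calcium sensor that partners CIPK23, rose 2.96-fold and NLP8, a nitrate-responsive transcription factor of seed germination, rose 2.44-fold in hac1hac5 (adjusted p = 0.00028 and 4.8e-05). In hac1hac5 the genes AT3G25790 and AT3G60320 fell, by 0.94 and 0.91. NLP3 fell by 1.14, lost without the second Col-0 library at -1.04 and without the second hac1hac5 library at -0.74. In med8med25 AT2G47880 had a log2 change of -3.06 (adjusted p = 0.0013) from a low level of 20.81 ± 2.03 in Col-0, with 64.0% of its exon bases free of an opposite-strand gene, and AT1G25550 rose by 0.53. LBD39, a repressor of nitrate-responsive genes, rose by 0.43, while NLP9 and HRS1 fell by 0.60 and 0.48. These 3 calls were lost without either Col-0 library, at 0.45 (0.446) and 0.41 (0.415) for LBD39, -0.59 and -0.61 for NLP9, and -0.49 and -0.47 for HRS1. NLP9 and HRS1 were also lost with library totals, at -0.44 and -0.32.

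**Figure D4:**
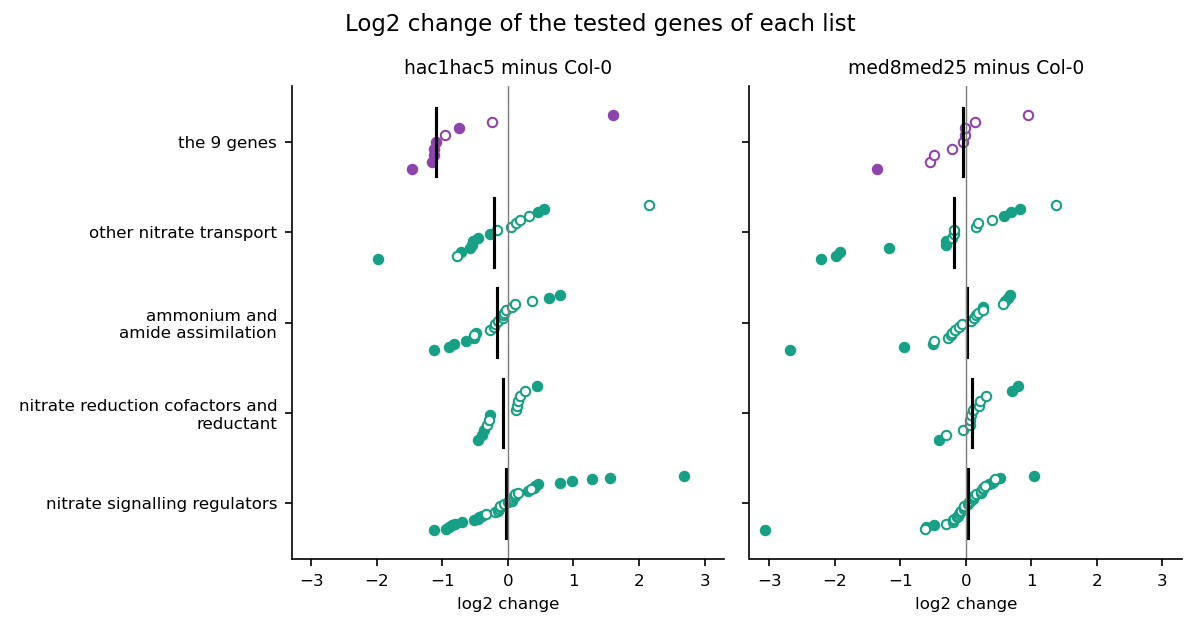
Log2 change against Col-0 of each tested gene of the 9 and of the other pathway lists in hac1hac5 and med8med25, where filled points have an adjusted p under 0.05, open points do not, and the black line is the list median. In hac1hac5 the median of the 9 genes is -1.10, and those of the other lists lie between -0.22 and -0.03. The 9 genes and the lists were chosen with earlier results of these data known.

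The pathway gene whose level ran most alike each of the 9 across the 6 libraries was found among 82 candidates by Pearson's r of the log2 values, as a description over libraries that share genotypes. GLT1, the NADH-dependent glutamate synthase, was nearest to NRT1.1 (r = 0.991), GLN2 (r = 0.981) and ASN2 (r = 0.992), and LBD37 to NIA2 (r = 0.984). GLT1 read 23900 ± 468 in Col-0, against 15400 ± 391 for hac1hac5 and 25300 ± 689 for med8med25 (SD, n = 2). NRT1.5 ran nearest to UPM1 (r = 0.969), NRT1.8 to BT1 (r = 0.976), NRT2.1 to FD3 (r = 0.942), NIA1 to NRT2.7 (r = 0.953), and NIR1 to AT3G60320 (r = 0.939).

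Root and leaf markers moved between the genotypes as well. The summed normalized counts of 14 root markers were 67940 and 67410 in Col-0, with 49900 and 57390 for hac1hac5 and 35520 and 34050 for med8med25, with none at 0. Most of each sum was PYK10, a root beta-glucosidase, singled out after its values were seen, at 57040 and 57310 in Col-0, with 42170 and 49240 for hac1hac5 and 25690 and 24880 for med8med25. The other 13 root markers summed to 10900 and 10100 in Col-0, with 7736 and 8148 for hac1hac5 and 9836 and 9164 for med8med25, so the low med8med25 sum was mostly PYK10. In hac1hac5 1 root marker was higher and 7 lower, with a list median of -0.37, and in med8med25 2 were higher and 5 lower, with a median of 0.03. With library totals these counts were 1 and 3, and 3 and 3. Root markers called under the authors' scaling were 57.1% in hac1hac5 and 50% in med8med25, beside 38.4% and 26.6% of all genes. The sums of 12 leaf photosynthesis markers were 2442000 and 2535000 in Col-0, with 1849000 and 1821000 for hac1hac5 and 1900000 and 1530000 for med8med25, with none at 0. In hac1hac5 none of the leaf markers was higher and 6 were lower, with a median of -0.60 (-0.595), and in med8med25 1 was higher and 4 were lower, with a median of -0.36. With library totals these counts were 0 and 10, and 1 and 5. Leaf markers called under the authors' scaling were 50% in hac1hac5 and 41.7% in med8med25, beside the same shares of all genes. The part of these markers in the changes of the 9 genes was not tested.

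The 250 bases upstream of each transcript start were searched on both strands, in TAIR10.1, for the core of the nitrate-responsive element (NRE), the G-box CACGTG and the NIGT1 motif GAATATTC. Of 32546 gene windows, 0.0369%, 5.9% and 0.823% held them. None of the 9 windows held any of the 3, which says only that these letters are not in these windows.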

How the data were processed

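RNA-seq values of 6 libraries, 2 per genotype, came as 1 table for the series. HISAT2, featureCounts, edgeR and genome build TAIR10 are named in the submitters' processing notes. Their versions, the annotation and any strand setting are not given in the sources used here. What the authors deposited is a normalized signal, not whole reads. Reversing a quantile adjustment to a common library of 32.6 M reads, with 7 fitted parameters, gave whole reads for 195288 of 195288 values, within a relative difference of 1e-06. The deposited signal was used for the main test and the recovered reads for depths, counting intervals and an added test.

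The test was limma (version 3.58.1, R 4.3.3) with a mean-variance trend on log2(value + 1), fitted to the 23898 genes at 1 or more in at least 2 libraries, with the 3 genotypes as groups and Benjamini-Hochberg adjustment over all of them. The 9 members and the pathway and marker lists were chosen with earlier results of these data known. Beside the members, genes named were up to 3 per list and direction with the largest called change, the nearest gene by correlation, the synthetase families, and NRT2.2 and NRT3.1, which were named for NRT2.1. Alternatives were another pseudocount, no filter, library totals, a replicate block, the compared genotypes alone and each library left out, besides those added later. Exon lengths, unique stretches of 50 bases and sequences came from the RefSeq TAIR10.1 genome and annotation, with Python 3.11.15 and Biopython 1.88.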

Additional observations from a re-analysis of the deposited data

How the results depend on the processing

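Each result was refitted under 13 alternatives, of which limma voom on the recovered reads and a crossed replicate block were chosen after seeing the data. Of the refitted changes of single genes, 982 kept their direction and side of the threshold, 56 lost their call, 13 gained one and 15 turned sign. Leaving out libraries in turn, members called ranged from 6 to 8 in hac1hac5, from 1 to 3 in med8med25 and from 6 to 8 between the mutants. Other pathway genes called ranged from 24 to 47, from 14 to 33 and from 34 to 43, and all genes called from 5203 to 10667, from 2559 to 6877 and from 6853 to 9958, lowest in the comparisons with Col-0 without its second library (5203 and 2559). The first Col-0 library left out gave 5588 and 2706. In med8med25 the members called were 2 with library totals (NRT1.5 and ASN2), with limma voom and the crossed block (NRT1.5 and NIA1) and without the second hac1hac5 library (NRT1.5 and NRT2.1). They were 3 without the first med8med25 library (NRT1.5, NIA1 and NIA2). The causes were not tested.

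With library totals the med8med25 log2 change turned to 0.15 (0.148) for NRT1.1 and for GLN2, 0.12 for NIR1 and 0.00 (0.001) for ASN3, and the hac1hac5 change to 0.10 for GLN1;2 and 0.11 for ASN3. In med8med25, NRT1.1 turned to 0.01 (0.008) without the first Col-0 library, GLN2 to 0.03 without the second, and NRT1.1, NIA2, NIR1 and GLN2 to 0.09 (0.086), 0.039, 0.11 and 0.09 without the second med8med25 library, against -0.108, -0.465, -0.188 and -0.111 without the first. In hac1hac5, GLN1;3 ranged from -0.063 without the first hac1hac5 library to 0.197 without the second, and ASN3 from -0.185 without the second Col-0 library to 0.043 without the first, and was 0 without the second hac1hac5 library. None of these genes was called in the reported analysis in the comparison named.

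With the replicate block the members called were 7, 1 and 7 in the same order of comparisons, the other pathway genes 42, 26 and 38, and all genes 8234, 5357 and 9004. The same-numbered libraries did not deviate together, and correlations of their deviations from the genotype means were -0.01, -0.13 and -0.23 (Col-0 with hac1hac5, Col-0 with med8med25, hac1hac5 with med8med25). No label ties a number to a shared day or plant, and the crossed pairing called 7, 2 and 7 members and 9361, 6732 and 10176 genes. NRT2.1 rested on 7 to 43 reads per library.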
